A study of Homo sapiens with 2 samples.

Results

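MYCN, CCND2, NOTCH2 and WNT2B are 4 growth and signalling genes that the authors' deposited tables list as higher in Hep3B cells carrying a caveolin-1 hairpin. They were chosen by name from those tables, which name 190 genes by a single symbol. The 4 genes hold 6 of the 244 entries, with 1 probe set for MYCN, 2 for CCND2, 2 for NOTCH2 and 1 for WNT2B. Any probe set of these genes that differed by less than 2-fold carries no gene name here. The values, means and SDs below therefore cover listed probe sets alone. Since the tables hold probe sets that differ by at least 2-fold between the samples, the direction and the minimum size of each difference were used to choose the genes, and they are given here as a description. Total RNA was profiled on Affymetrix HG-U133 Plus 2.0 arrays from 1 sample of Hep3B cells with a hairpin against caveolin-1 (shCav1) and 1 sample of Hep3B cells with a non-target hairpin (shCtl), both grown in DMEM-HG. Hep3B is a long-established line from a human liver cancer, and caveolin-1 is a membrane protein that coats caveolae, small pits of the cell surface. The sources used here do not say whether either cell population was a clone or a pool, nor do they give the sequence of the hairpins. With 1 array per group there is no replicate spread, no test and no p-value, and loss of caveolin-1 and any other difference between the samples cannot be told apart.

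The 4 genes stand at different points of growth control. WNT2B is a secreted ligand of the Wnt family, which binds Frizzled receptors and stabilises beta-catenin in the receiving cell. NOTCH2 is a cell-surface receptor that is cut when it binds a ligand on a neighbouring cell, after which its inner part enters the nucleus and acts with the DNA-binding protein RBPJ. MYCN is a transcription factor of the MYC family, which binds DNA together with MAX and drives genes of cell growth. CCND2 encodes cyclin D2, which activates CDK4 and CDK6 so that RB is phosphorylated and E2F factors are released. In liver, Wnt signalling sets the zones of hepatocyte metabolism, NOTCH2 takes part in the formation of bile ducts, and MYC proteins and D-type cyclins accompany hepatocyte proliferation.

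All 6 listed probe sets were higher in shCav1, over a range of levels from close to the floor of the array to well above its median. The signal of MYCN was 8.20-fold higher. Cyclin D2 was 4.23-fold higher at one probe set and 2.39-fold at the other. NOTCH2 was 2.20-fold and 2.21-fold higher at its probe sets, and WNT2B 2.23-fold higher. In bulk RNA, a difference in the number of cells that express a gene and a difference in RNA per cell cannot be told apart. A brightness filter kept 28128 probe sets, those whose brighter array reached the median of all values at a linear signal of 30.7. Among them 0.501% were at least 2-fold higher and 0.299% at least 2-fold lower. These were 141 higher and 84 lower probe sets as deposited, but 102 higher and 142 lower when differences were centred on the hybridization spikes described below. Without the filter the shares were 0.278% and 0.168% of 54613. Of the 6 member probe sets 5 passed this filter and WNT2B did not. MYCN and the dimmer CCND2 probe set, at 29.7 and 17.1 in shCtl, passed only through their higher signals in shCav1. As the members were taken from the 2-fold tables, their count is fixed by the choice and nothing is read from it against these shares.

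Some facts of both arrays bear on all values below. Signals are linear; those of shCtl were read from the deposited signal table, and those of shCav1 were computed as the shCtl signal times the fold. CAV1, the targeted gene, was at 6.61% of its shCtl signal at one probe set and at 7.38% at the other, in the direction of the labels. All 18 probe sets of control RNA spiked in at hybridization read higher in shCav1, with log2 differences from 0.07 to 0.25 and a median of 0.14. The actin control was lower in shCav1 by a log2 difference of -0.88 at its 5' probe set and of -0.22 at its 3' probe set. For the GAPDH control these values were -0.24 and -0.05. The part of these shifts in the members' differences was not tested, except that the differences were also taken relative to the spikes. Of 36 markers of hepatocytes, stellate cells, endothelium, macrophages and lymphocytes, FGG, a fibrinogen chain made by hepatocytes, is in the deposited tables, from 263 in shCtl to 944 in shCav1. The probe sets of the other markers carry no gene name here, so their levels could not be checked. Over all probe sets 0.278% were listed as higher and 0.168% as lower, and the 1 listed marker is not read as a result about cell type.

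**Figure D1:**
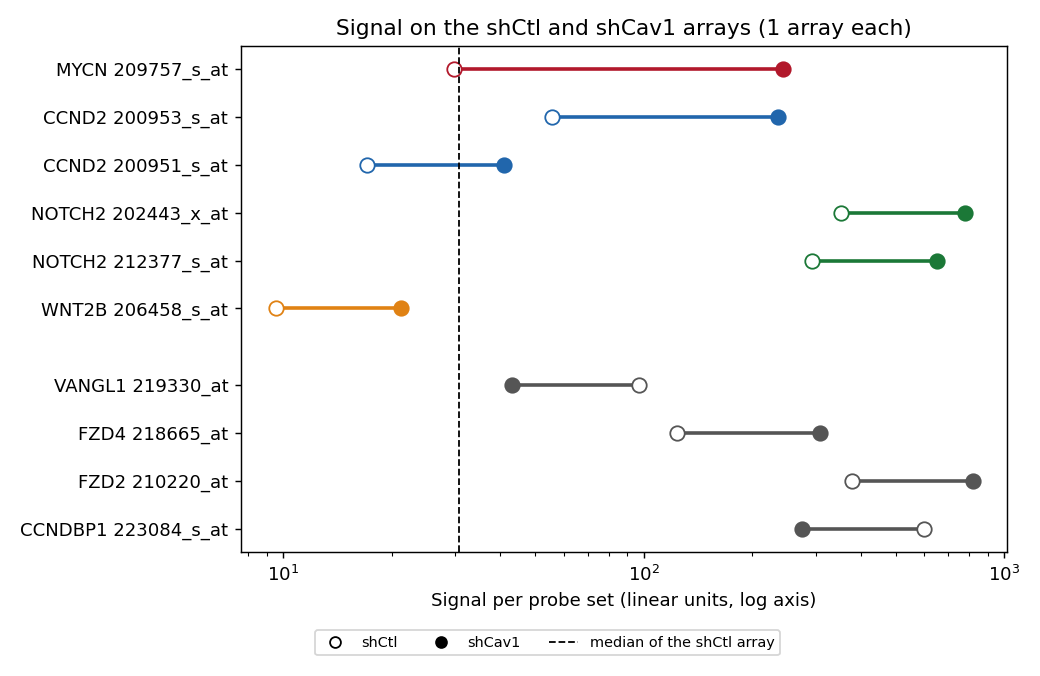
Linear signal (log axis) of each listed probe set on the shCtl array (open circles) and the shCav1 array (filled circles), 1 array each, for the 4 genes above and for VANGL1, FZD4, FZD2 and CCNDBP1 below them. The dashed line is the shCtl array median of 30.6; WNT2B lies left of it on both arrays, and NOTCH2 lies right of it on both.

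WNT2B, the ligand, had the weakest signal of the group relative to the array. Its probe set 206458_s_at read 9.52 in shCtl and 21.3 in shCav1, both below the shCtl median of 30.6. On the shCtl array 84.0% of all probe sets were brighter, and on the shCav1 array 40.2% were dimmer. The log2 difference was 1.16, and it was 0.55, under 2-fold, when a pseudocount of 16 was added to both signals. Relative to the hybridization spikes it was 1.02, barely above 2-fold. Whether either reading was above background was not tested, as no detection call is used here. The probe set aligns to the plus strand of chromosome 1 at 113051865 to 113063905 in the deposited alignment, for which no genome build is stated. The deposited annotation assigns frizzled-2 binding to WNT2B, by similarity.

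FZD2, the Frizzled receptor named in that annotation, was itself listed as higher, from 379 in shCtl to 817 in shCav1, a log2 difference of 1.11. FZD4, a further Frizzled receptor, was higher by 1.32 on the log2 scale, from 123 to 308. VANGL1, a membrane protein of the planar cell polarity branch, was lower by a log2 difference of -1.17, from 97.0 in shCtl to 43.1 in shCav1. All 3 passed the brightness filter. They were the listed members, 2 higher and 1 lower, of a list of 47 Wnt receptors, inhibitors and intracellular parts, beside a background of 0.501% higher and 0.299% lower among kept probe sets. The median log2 difference of these 3 was 1.11, which the 2-fold tables and the small number decide, while the median over all kept probe sets was -0.01. Relative to the hybridization spikes the FZD2 difference was 0.97, just under 2-fold, and that of FZD4 was 1.18. Under the pseudocount of 16 it was 1.08 for FZD2, 1.22 for FZD4 and -0.93, under 2-fold, for VANGL1. No member was listed among 25 genes for other Wnt ligands, their secretion and related secreted factors, nor among 18 Wnt targets such as AXIN2, LGR5 and RNF43. With 0.278% of all probe sets listed as higher and 0.168% as lower, a count of 0 is near the background for lists of this size. The 3 listed of 47 genes are a larger share than these, but a gene can have several probe sets. No test was run, and none of these counts is read as a result about the pathway. Differences of these genes under 2-fold cannot be read here, because probe sets outside the deposited tables have no gene name.

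NOTCH2, the receptor, had the brightest readings of the group relative to the array. Probe set 202443_x_at read 353 in shCtl and 776 in shCav1, and probe set 212377_s_at read 294 and 649. On the shCtl array 85.6% and 83.9% of all probe sets were dimmer than these. The log2 differences were 1.14 and 1.14, with a mean of 1.14 ± 0.0049 (SD over 2 probe sets of the same arrays, a technical spread). This was the smallest SD among the 23 genes with at least 2 listed probe sets, whose median SD was 0.16. As all listed probe sets are past 2-fold, one of the same gene under 2-fold does not enter its SD. The rank is a description of the listed entries alone. The deposited alignments run on the minus strand of chromosome 1 from 120454177 to 120461138 for 212377_s_at, the 3' end of the longer alignment, and from 120454177 to 120612261 for 202443_x_at. The suffix x_at marks a probe set whose probes may bind other transcripts, and 4 NOTCH2NL genes, near copies of the start of NOTCH2, are in the RefSeq gene table. Their part in the signal was not tested, and the difference at the other probe set was larger by 0.0069. Whether the other member probe sets, all with the suffix s_at, also bind further transcripts was not tested.

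NOTCH2, like WNT2B, was closer to the 2-fold limit than MYCN or cyclin D2. Of the 152 higher entries, 45 had a smaller difference than its lower probe set, and their lowest fold was 2.0004. The highest fold outside the tables was just under 2, and 76 unlisted probe sets were between 1.8-fold and 2-fold higher. Relative to the spikes the NOTCH2 log2 differences were 1.002 and 1.01, barely above 2-fold, whereas the pseudocount of 16 left them at 1.10 and 1.10. Of 28 genes for other Notch receptors, ligands and processing enzymes none was listed in either direction. Among 22 nuclear partners and targets of the pathway, with HES1, HEY1 and NRARP, again none was listed. At the shares of 0.278% higher and 0.168% lower over all probe sets, both counts lie near the background and nothing is read from them. No singly named gene with usable process terms carried one that names Notch, and for NOTCH2 itself these terms are not used here.

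**Figure D2:**
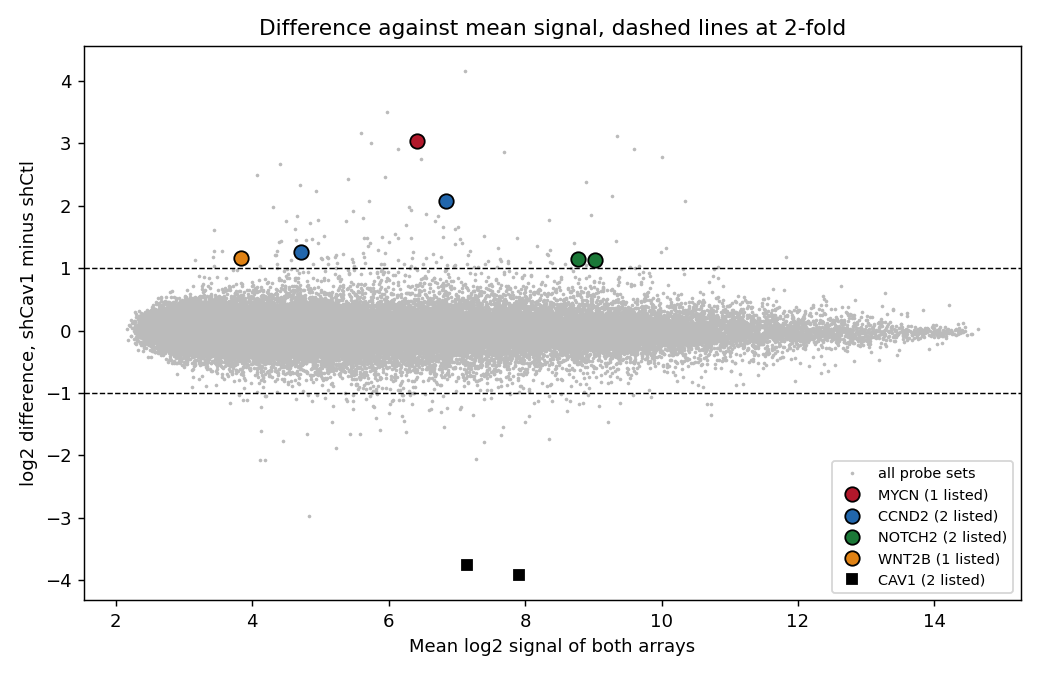
log2 difference (shCav1 minus shCtl) against the mean log2 signal of both arrays for all 54613 probe sets (grey), the 6 listed probe sets of the 4 genes (coloured circles) and both CAV1 probe sets (black squares), with dashed lines at 2-fold. MYCN lies at 3.04 and the other members between 1.14 and 2.08, while CAV1 lies at -3.92 and -3.76.

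MYCN, the transcription factor, had the largest difference of the 4 genes. Its single listed probe set, 209757_s_at, read 29.7 in shCtl and 243 in shCav1. In shCtl it lay at the middle of the array, with 49.2% of all probe sets dimmer, and in shCav1 81.9% were dimmer. The log2 difference was 3.04, the rank 5 when all 54613 probe sets were ordered by signed difference from highest to lowest. The robust SD of the differences among kept probe sets was 0.21, and this spread is between probe sets and not between samples. Since the shCtl signal lay at the array median, the fold depends on the background: under the pseudocount of 16 the log2 difference was 2.51. The probe set aligns to the plus strand of chromosome 2 at 16082045 to 16087123, in band p24.3. MYCNOS, an antisense gene that overlaps MYCN in the RefSeq gene table, has no listed entry. Neither had MYC, MAX or any other of 18 gene symbols of the MYC network, nor any of 25 genes known to respond to MYC proteins, such as ODC1, NCL and NPM1. These counts of 0 also lie near the shares over all probe sets, 0.278% higher and 0.168% lower, and say nothing about MYC activity.

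The sequence before the MYCN start is shown because the gene had the largest difference, and that of NOTCH2 because its probe sets were the brightest and differed least from each other. Each is the 250 bases before the annotated start from RefSeq on GRCh38.p14, 5' to 3' on the strand of the gene. MYCN is at chr2:15940300-15940549 on the plus strand and NOTCH2 at chr1:120069663-120069912 on the minus strand. As no build is stated for the deposited alignments, these positions cannot be set against those of the probe sets. Capitals mark matches on either strand to short motifs of factors through which these pathways act.
MYCN: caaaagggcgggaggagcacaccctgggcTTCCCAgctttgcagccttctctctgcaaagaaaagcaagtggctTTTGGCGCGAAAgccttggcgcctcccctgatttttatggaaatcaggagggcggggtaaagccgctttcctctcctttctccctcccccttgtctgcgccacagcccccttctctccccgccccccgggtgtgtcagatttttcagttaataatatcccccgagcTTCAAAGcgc
NOTCH2: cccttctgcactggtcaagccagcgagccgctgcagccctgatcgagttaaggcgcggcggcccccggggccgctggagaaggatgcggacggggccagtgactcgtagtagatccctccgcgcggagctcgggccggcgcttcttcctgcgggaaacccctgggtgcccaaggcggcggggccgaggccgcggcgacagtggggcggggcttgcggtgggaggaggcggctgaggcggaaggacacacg
The motifs were CACGTG for MYC with MAX, TTTCGCGC or TTTGGCGC for E2F, TGGGAA for RBPJ, and, for TCF, CTTTG followed by a pair of letters that are each A or T. The MYCN window held an overlapping pair of E2F matches, TTTGGCGC at 176 to 169 bases before the start and its neighbour on the other strand at 172 to 165. It also held 1 RBPJ match at 221 to 216 and 1 TCF match at 10 to 4 bases before the start, and no CACGTG. An E2F match was present in 0.968% of all 35116 RefSeq windows of this length, an RBPJ match in 20.8%, a TCF match in 12.0% and CACGTG in 6.34%. The NOTCH2 window and both windows for the starts of WNT2B held none of these letters. The share of G and C was 57.2% before MYCN, 72.8% before NOTCH2, and 60.4% and 80.0% before the WNT2B starts, beside a median of 58.0% over all windows. A match describes the letters of the reference and is not evidence of binding in these cells.

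CCND2, which encodes cyclin D2, was higher at both listed probe sets, but by different amounts. Probe set 200953_s_at read 55.6 in shCtl and 235 in shCav1. Its log2 difference of 2.08 had the rank 21 among the higher entries. Probe set 200951_s_at read 17.1 and 40.8, and its log2 difference of 1.26 had the rank 79. Their mean was 1.67 ± 0.58 (SD, 2 probe sets of 1 array pair). Among the 23 genes with at least 2 listed probe sets this SD was second to 1 other gene. The deposited alignments of both start at 4382937 on the plus strand of chromosome 12 and end at 4414516 and 4414519, so they do not show which part of the transcript each probe set reads. The probe set with the smaller difference was below the array median in shCtl, and under the pseudocount of 16 its log2 difference was 0.78, under 2-fold. The brighter probe set had 1.81 under the same setting.

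No gene of a list of 25 other G1 cyclins, their kinases, inhibitors and RB and E2F proteins, with CCND1, CCND3, CDK4 and CDKN1A among them, was named in the deposited tables, beside 0.278% of all probe sets listed as higher and 0.168% as lower. Of the 244 entries 23 carry no symbol and could not be searched for any list, and the 3 with several symbols named no list gene. CCNDBP1, which encodes a protein that binds D-type cyclins, was lower in shCav1, from 599 to 274, a log2 difference of -1.13. It is not in the list and was chosen after its value was seen. Over the 8 pathway lists together, with 205 different gene symbols besides the members, 3 genes were listed. All were in the list of Wnt receptors, inhibitors and intracellular parts. A gene can have several probe sets, so this count of genes cannot be set exactly against the shares of probe sets, 0.278% and 0.168%, and nothing is read from it.

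**Figure D3:**
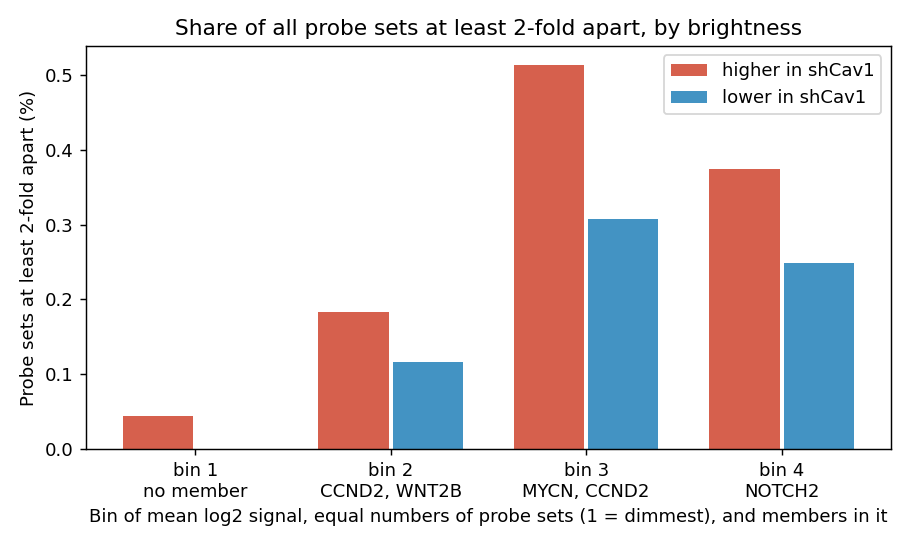
Percentage of all probe sets that were at least 2-fold higher (red) or lower (blue) in shCav1, for 4 bins of equal size by the mean log2 signal of both arrays, with the members that fall in each. In the dimmest bin 0.0439% were higher and 0.0% lower, and the share of higher probe sets was 0.183% in bin 2, 0.513% in bin 3 and 0.374% in the brightest.

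When all probe sets were cut into 4 equal bins of brightness, the 6 member probe sets fell in 3 of them. WNT2B and the dimmer CCND2 probe set lay in bin 2, where 0.183% of 13653 probe sets were at least 2-fold higher and 0.117% at least 2-fold lower. MYCN and the brighter CCND2 probe set lay in bin 3, with 0.513% higher and 0.308% lower. Both NOTCH2 probe sets lay in the brightest bin, with 0.374% higher and 0.249% lower. The robust SD of the log2 differences was 0.20 in bin 2, 0.21 in bin 3 and 0.19 in bin 4, so the spread between probe sets was similar at the brightness of each member.

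For each gene the nearest other listed genes were found by the distance between their log2 signals on both arrays, over 2 samples. For MYCN these were MUM1L1 at a distance of 0.23 and MAGEA3 at 0.40. For CCND2 they were IRX3 at 0.24 and THSD7A at 0.30, and for NOTCH2 RNF128 at 0.07 and FZD2 at 0.13. For WNT2B they were TRPC4 at 0.39 and TDO2 at 0.40. A signal depends on the probes as well as on the RNA, so a short distance describes readings that look alike and not equal amounts.

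**Figure D4:**
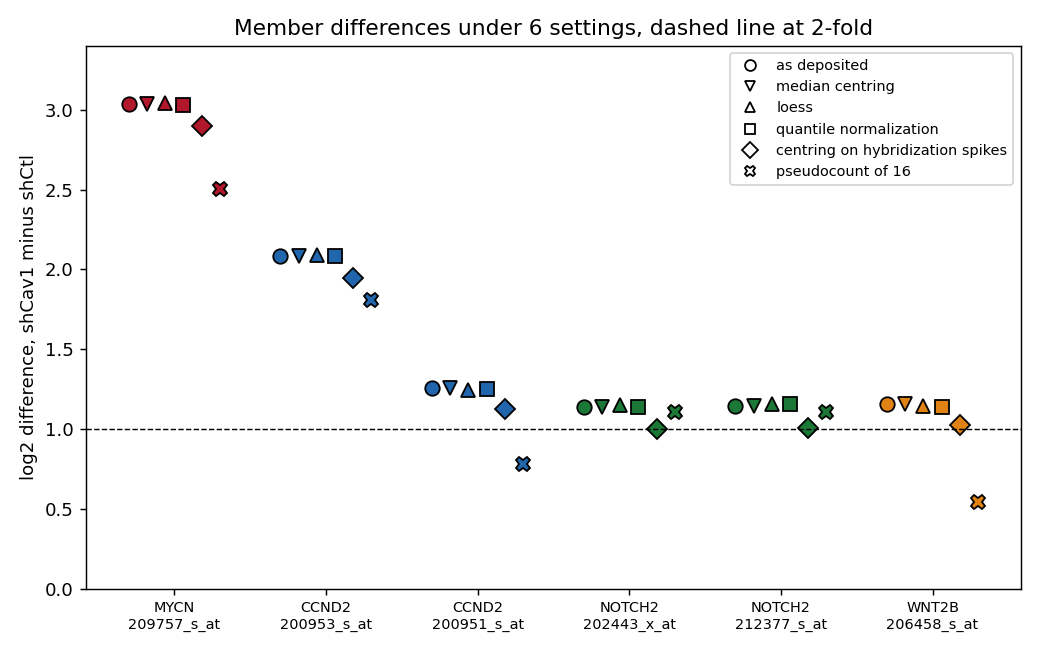
log2 difference (shCav1 minus shCtl) of each listed member probe set under 6 settings, with the dashed line at 2-fold. The pseudocount of 16 takes WNT2B to 0.55 and the dimmer CCND2 probe set to 0.78. Centring on the spikes brings NOTCH2 to 1.002 and 1.01 and WNT2B to 1.02.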

How the data were processed

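Gene expression was measured in 2 samples, grouped by their titles. Per the submitters' processing notes the arrays were processed with RMA, of unstated version. The series values deposited by the authors are log2 values, with each probe set's mean over both samples set to 0, so they give differences and no levels. Levels in shCtl are the linear signal intensity in the authors' deposited signal table, per the file headers. The table's other column, 1 in number, matches no label and was not used. The shCav1 level is the shCtl signal multiplied by the fold. Gene symbols, alignments, log2 differences and a linear fold ratio come from the UP and DOWN tables deposited by the authors, whose log2 values equal the series differences within 1e-05 for all 244 entries. A signed fold in the deposited tables was not used.

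The 62 control probe sets were left out of counts. A gene's representative was its listed probe set with the highest mean signal. The named genes were the members, CAV1, every gene of 8 pathway lists that is in a deposited table, and the 2 nearest genes of each member. The members, lists, motifs and settings were chosen with earlier results of these data known. Alternatives were median centring, a loess curve (span 0.3), quantile normalization, centring on the spikes, a pseudocount of 16, a mean over listed probe sets, other brightness filters and limits, and matching by current symbol, where 217 entries matched RefSeq. The number of arrays limits the precision. Counting was tested on simulated data with 54613 probe sets and 200 changed, and recovered 2.0% of those changed 1.5-fold, 94.0% at 2.5-fold, and 100.0% at 3-fold and at 4-fold. The simulated noise was normal, with the robust SD between probe sets and not between samples. These shares follow from that SD and the 2-fold limit. They check the counting and do not say what share of true changes was found in these data. Python 3.11.15 with numpy 2.4.6, pandas 2.3.3 and statsmodels 0.14.6 was used. Promoter sequences came from RefSeq (GRCh38.p14), for 3 of the 4 genes.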

Additional observations from a re-analysis of the deposited data

How the results depend on the processing

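All 6 member probe sets were higher in shCav1 under each of the 5 other settings of the values, and all stayed past 2-fold except under the pseudocount of 16, where 4 of 6 did. That setting shrinks dim differences by construction, and gave log2 differences of 2.51 for MYCN, 1.81 for CCND2 and 0.55 for WNT2B. The members were chosen past 2-fold, a pseudocount cannot turn a sign, and median centring left each member value as deposited. Nothing is therefore read from the shared direction. The mean over listed probe sets gave 1.67 for CCND2. A move was judged against the robust SD of 0.21 between kept probe sets, because there are no replicates. Of the 141 higher and 84 lower kept probe sets, the pseudocount left 91 and 49, a filter at the 75th percentile, which counts fewer probe sets, 79 and 43, a limit of 1.5-fold gave 552 and 578, and a limit of 3-fold 42 and 16. Centring on the spikes gave 102 higher and 142 lower, so that the larger group was then the lower one. Matching by current symbol left the pathway counts at 2 higher and 1 lower. The use of all probe sets of a gene was not run, since those under 2-fold carry no gene name here. No paired analysis was possible because there is a single array for either hairpin. WNT2B and the dimmer CCND2 probe set read below the array median in shCtl, and MYCN just below it. Signal over background was not measured here.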

Other observations

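The deposited annotation terms were read after the values were seen, over the 143 singly named genes with usable process terms, of which 86 were higher and 57 lower. Terms that name Wnt were carried by FZD2, FZD4 and WNT2B, which were higher, and by SNAI2, a transcriptional repressor, which was lower with a log2 difference of -1.05. Cell cycle terms were carried by CCND2, which was higher, and by 3 genes that were lower. These were APPL1, an adaptor of early endosomes, with -1.26 and -1.17 at its probe sets, CCNDBP1 with -1.13, and NASP, a histone chaperone, with -1.16 at a dim probe set that read 19.1 in shCtl and 8.54 in shCav1. Cell proliferation terms were carried by 9 higher genes, CCND2 and WNT2B among them, and by 4 lower ones. With so few genes per term, these splits are given beside 86 and 57 as a description only.

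Along the chromosomes, as the deposited alignments place them, NOTCH2 and WNT2B lie 7.39 Mb apart on chromosome 1, and VANGL1, which was lower, lies between them. The listed entry nearest to CCND2 on chromosome 12 was EFCAB4B, at 0.665 Mb, with a log2 difference of 1.15. C1S at 2.75 Mb was higher by 1.25 and A2M at 4.81 Mb by 1.32. Within 10 Mb of MYCN on chromosome 2 the listed entries were IAH1, higher by just 2-fold, and KLHL29, lower with -1.12.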
